A study of Danio rerio with 3 samples.

Results

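The genes of the microtubule system were described here in zebrafish embryos, taken whole at 24 hours post-fertilization: alpha-, beta- and gamma-tubulins, kinesin motors, cytoplasmic dynein and dynactin subunits, and stathmins. The members were the genes whose single symbol in the platform annotation begins with the tubulin (tuba, tubb, tubg, tubd, tube), kinesin (kif followed by a digit, kifc), dynein (dync, dynl), dynactin (dctn) or stathmin (stmn) prefixes. This gave 49 genes on 70 probe sets, or 0.557% of the 8793 genes named on the array. They were 10 mitotic kinesins, 4 transport kinesins, 3 ciliary and other kinesins, 4 neural tubulins, 9 other alpha- and beta-tubulins, 3 genes of gamma-tubulin and its ring complex, 11 cytoplasmic dynein subunits, 2 dynactin subunits and 3 neural stathmins, placed in these classes by symbol. The classes were drawn up with earlier results of these data known. Signals were compared between 3 groups with a single 1-colour Affymetrix array each. One group received an siRNA against the zebrafish peptidoglycan recognition protein PGRP-SC, one received a control siRNA, and one was left uninjected. Both siRNAs were delivered into zygotes at 300 ng/µl in 1 nL, and each group was a pool of 400 embryos of mixed parentage kept at 28 ± 0.5 °C.

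Microtubules are polymers of alpha- and beta-tubulin that grow from gamma-tubulin ring complexes. Most kinesins walk towards the plus end, and cytoplasmic dynein, with its activator dynactin, walks towards the minus end. In dividing cells a set of kinesins builds the spindle and the midzone on which cytokinesis depends, whereas in neurons other kinesins carry cargo along axons whose microtubules are made largely of neural tubulin isotypes. Stathmins bind tubulin dimers and promote disassembly, and several family members are made mainly by neurons. At 24 hours the zebrafish embryo holds both cycling progenitors and the first differentiated neurons.

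The 3 arrays had median scaled signals of 162 with PGRP-SC siRNA, 169 with control siRNA and 166 without injection. A signal under 101.7, the 40th percentile of all signals, was treated as too low to rank and is called under the floor. A ratio with 1 signal under it is given as a bound, and with both under it as none. With 1 array per group there is no spread between samples and no test, and the number of arrays limits the precision. The only yardstick is the difference between the control siRNA and uninjected arrays, which stayed under 1.71-fold for 95% of the probe sets above the floor in both. That difference also holds any effect of injection. In whole embryos, fewer cells of a type and less RNA per cell cannot be told apart. The number of probe sets named for a peptidoglycan recognition protein was 0, so the level of the targeted transcript was not analysed here. Of the 49 members, 40 were above the floor in all 3 arrays, 5 in some and 4 in none. A member seen only in the arrays where it was high had to differ, so those 5 are described by their bounds.

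Set against control siRNA, the PGRP-SC siRNA array shows what differed between injected embryos. The neural stathmins and 2 of the 4 neural tubulins were lower with PGRP-SC siRNA. The other neural tubulins, tubb2b and tuba1b, differed little by the probe sets used. For tuba1b the size depended on the probe set. A second one had a log2 ratio of 0.28, and 3 given to more than 1 alpha-tubulin gene had -0.90, -0.90 and -0.94. Most mitotic kinesins were slightly higher, and the 8 dynein and dynactin genes with a ratio had log2 ratios from -0.60 to 0.11. Of 44 members with a ratio, 4 were lower and 1 was higher by at least 2-fold. These are 9.09% and 2.27% of the members, beside a background of 2.93% lower and 2.87% higher over all 6514 named genes with a ratio. The 4 lower genes were all of the neural classes, namely tubb5, tubb2, stmn1b and stmn2a, and the higher one was the mitotic kinesin kif20a. The same 5 genes were also at least 2-fold away in the same direction from uninjected embryos, where the background for passing against both controls was 2.39% lower and 2.4% higher. Just short of 2-fold lower than control siRNA were tubb4bl and tuba2, of the other tubulins, at 1.97-fold and 1.79-fold. The classes go by symbol and were drawn up with earlier results of these data known. That the 4 lower genes fall in the neural classes is therefore a description only. Whether each gene of the neural classes is confined to neurons was not tested. The members' median log2 ratio was -0.074, beside -0.0026 over all named genes.

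**Figure D1:**
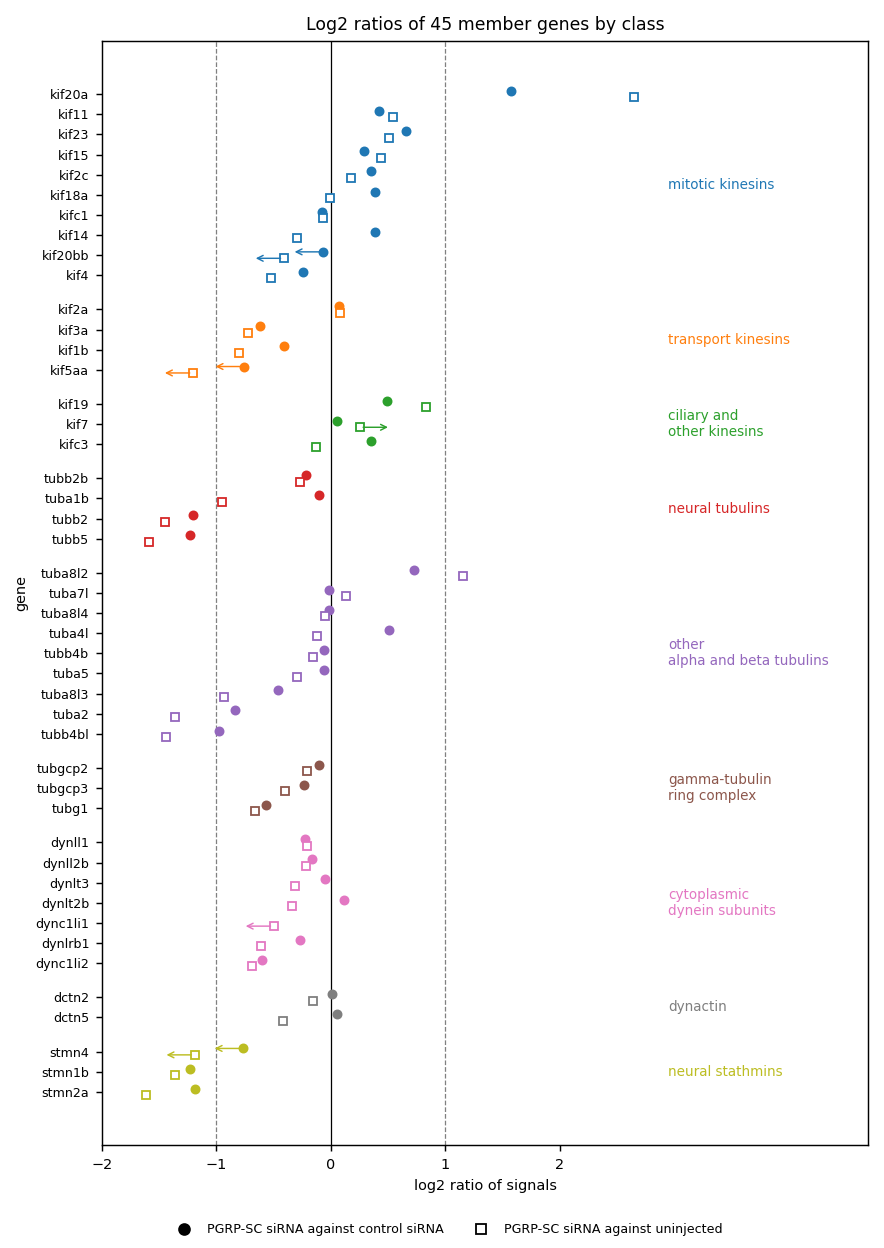
Log2 ratios (x axis) of the 45 members with a ratio (y axis, grouped by class), with filled circles for PGRP-SC siRNA against control siRNA and open squares for PGRP-SC siRNA against uninjected. Each point is 1 ratio between 2 arrays, arrows mark bounds and dashed lines a 2-fold difference. Right of the dashed line lie kif20a in both comparisons, at 1.58 and 2.65, and tuba8l2 only against uninjected, at 1.15. The 4 neural genes tubb5, tubb2, stmn1b and stmn2a lie left of the dashed line in both comparisons.

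Among the neural tubulins, tubb5, a beta-tubulin whose expression in zebrafish is known from the nervous system, gave a signal of 799.9 with PGRP-SC siRNA, 1882 with control siRNA and 2401 without injection. It was 2.35-fold lower than with control siRNA, and its log2 ratio against uninjected embryos was -1.59. Its weaker probe set, at 371, 695 and 1120 in the same order, was 1.87-fold lower than control siRNA and 3.02-fold lower than uninjected embryos, so both probe sets placed the PGRP-SC siRNA array lowest and the uninjected array highest. The beta-tubulin gene tubb2 had 244 with PGRP-SC siRNA, 561 with control siRNA and 666 without injection, which is 2.30-fold and 2.73-fold lower. The gap between the control arrays was smaller, at 1.28-fold for tubb5 by its stronger probe set and 1.19-fold for tubb2, although it was 1.61-fold by the weaker tubb5 probe set.

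By the probe sets used, the other 2 genes of this class did not share that size of difference. The signals of tubb2b, a beta-tubulin that is neural in mammals, were 11253, 13056 and 13589 in the PGRP-SC siRNA, control siRNA and uninjected arrays, a log2 ratio of -0.21 against control siRNA. For the alpha-tubulin tuba1b they were 2676, 2879 and 5173, so that by this probe set the step lay between the uninjected array and both injected ones. Its log2 ratio was -0.95 against uninjected embryos and -0.11 against control siRNA. A second tuba1b probe set, at 2501, 2066 and 3216, turned the direction against control siRNA to 0.28. A further 3 probe sets, which the annotation gives to more than 1 alpha-tubulin gene and which the rule therefore left out, had log2 ratios of -0.90, -0.90 and -0.94 against control siRNA. With control siRNA against uninjected embryos they were at -0.04, 0.46 and 0.03, so they did not place the step there. Closely related alpha-tubulins can share probes, so their values may be mixtures.

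The neural stathmins lay in the same direction. In zebrafish stmn1b is a stathmin 1 paralogue, and in mammals stathmin 2 (SCG10) is a growth cone protein of developing neurons. The stmn1b signal was 288 with PGRP-SC siRNA, 678 with control siRNA and 739.9 without injection. Its second probe set, at 289, 594 and 574, gave nearly the same picture, 2.06-fold lower than control siRNA beside 2.35-fold by the first. For stmn2a the signals were 188, 426 and 575, or 2.27-fold lower than with control siRNA and 3.07-fold lower than without injection. The third gene, stmn4, was under the floor with PGRP-SC siRNA and had 173 with control siRNA and 231 without injection, so it was at least 1.70-fold and at least 2.28-fold lower. Over the 7 neural tubulins and stathmins the median log2 ratio was -1.18 against control siRNA and -1.36 against uninjected embryos, with stmn4 entered at its bound. By class the medians were -0.71 and -1.20 for the 4 neural tubulins, and -1.18 and -1.36 for the 3 neural stathmins. The sign of stmn4 was fixed by the floor. By the probe sets used, the 6 genes above the floor in all arrays were all below 0 in both comparisons, with medians of -1.19 and -1.40. The other tuba1b probe set was at 0.28 against control siRNA. Both comparisons share the PGRP-SC siRNA array, so the one with uninjected embryos does not count as a repeat of the one with control siRNA.

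**Figure D2:**
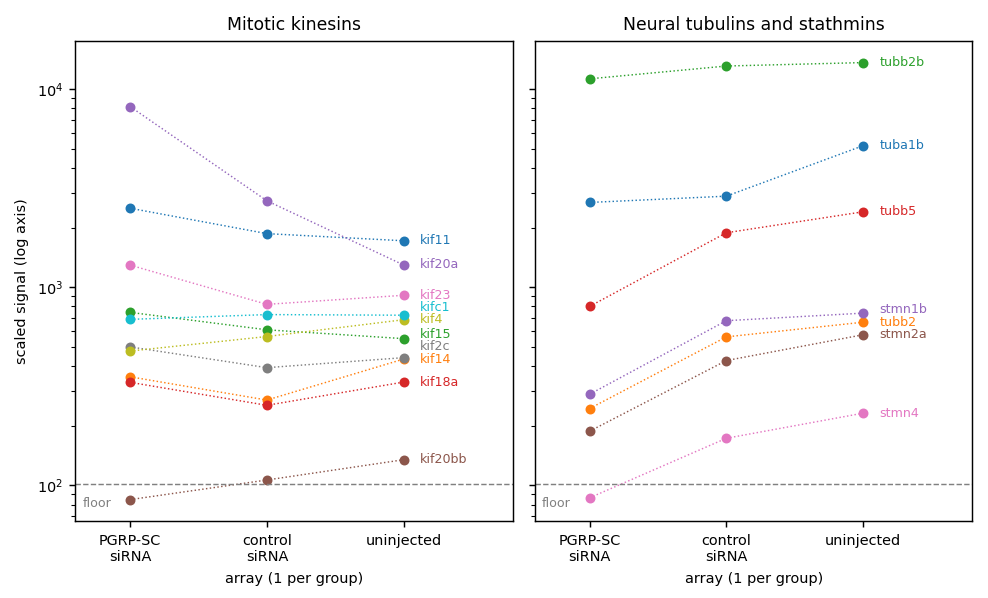
Scaled signal (y axis, log scale) in the PGRP-SC siRNA, control siRNA and uninjected arrays (x axis, 1 array each) for the 10 mitotic kinesins on the left and the 7 neural tubulins and stathmins on the right. Each colour is 1 gene, dotted lines only join its 3 values, heights are not comparable between genes, and the dashed line is the floor at 101.7. By the probe sets drawn, the 6 neural genes above the floor in all arrays are lowest with PGRP-SC siRNA, whereas the mitotic kinesins go both ways.

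The mitotic kinesins were led by kif20a (MKLP2 in mammals), a motor of the central spindle that cytokinesis needs. Its signal was 8147 with PGRP-SC siRNA, 2728 with control siRNA and 1295 without injection, which is 2.99-fold and 6.29-fold higher, and it already differed 2.11-fold between the control arrays. The second kif20a probe set did not show this staircase: it had 416 with PGRP-SC siRNA, 291 with control siRNA and 385 without injection, or 1.43-fold and 1.08-fold higher. Which of the probe sets follows the kif20a transcript was not tested.

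The next largest difference from control siRNA in this class was that of kif23 (MKLP1 in mammals), the motor subunit of centralspindlin, at 1293 with PGRP-SC siRNA, 819 with control siRNA and 910.4 without injection. This 1.58-fold difference lies inside the 1.71-fold range that held 95% of probe sets between the controls. The kif11 gene encodes the motor that pushes spindle poles apart (Eg5), and its signals were 2503, 1863 and 1715 in the same order, 1.34-fold and 1.46-fold higher with PGRP-SC siRNA. Signals of kif15, a spindle motor with a role that overlaps that of kif11, were 746, 609.6 and 550.2. Its second probe set, at 135, 102 and 92.2, was also higher than control siRNA. That probe set was under the floor without injection, so its sign against uninjected embryos was fixed by the floor.

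Others of the class were higher than control siRNA but not clearly so against uninjected embryos. The microtubule depolymerase gene kif2c (MCAK) had signals of 499.8 with PGRP-SC siRNA, 393 with control siRNA and 441 without injection. For kif18a, which acts in chromosome alignment, they were 331, 254 and 332, and for the cytokinesis motor kif14 they were 353, 269.5 and 434. In these 3 genes the control siRNA array was the lowest, so the uninjected array lay between the injected arrays or above both.

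Lower or level were the chromosome-bound kif4, at 476 with PGRP-SC siRNA, 564 with control siRNA and 685 without injection, and kifc1, a minus-end motor that bundles spindle microtubules, at 688, 728 and 722. The tenth gene, kif20bb, was under the floor with PGRP-SC siRNA, and had 107 and 135 with control siRNA and without injection. Against control siRNA, and with kif20bb entered at its bound, 7 of the 10 mitotic kinesins were above a log2 ratio of 0, with a median of 0.37 and a range from -0.24 to 1.58. The sign of kif20bb was fixed by the floor. Only kif20a of the 10 was outside the 1.71-fold range, beside 389 higher and 421 lower of all 6514 named genes with a ratio. Against uninjected embryos 5 of 10 mitotic kinesins were above 0, with a median of 0.088, which was -0.0043 with kif20a left out. Among all named genes with a ratio, 49.7% were above 0 against control siRNA and 51.8% against uninjected embryos.

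Set side by side, the mitotic kinesins had a median 1.55 log2 units above that of the neural tubulins and stathmins against control siRNA and 1.45 above it against uninjected embryos. Between the control arrays the same gap was 0.19. By the probe sets used, the ranges of the classes met only at their edges against control siRNA. There kif4, at -0.24, lay below tubb2b at -0.21 and tuba1b at -0.11. The other mitotic kinesins were above every neural gene, although kif20bb, with a bound of -0.07, may lie lower. The tuba1b probe set used is one that can share probes. By the second tuba1b probe set, at 0.28, tuba1b was above kif4, kifc1 and kif20bb. Against uninjected embryos kif4, kif14 and kif20bb, at -0.52, -0.30 and a bound of -0.41, were below tubb2b at -0.27. Genes of a class are not replicates, and the members were placed in classes with earlier results of these data known, so this gap is a description of 3 arrays.

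**Figure D3:**
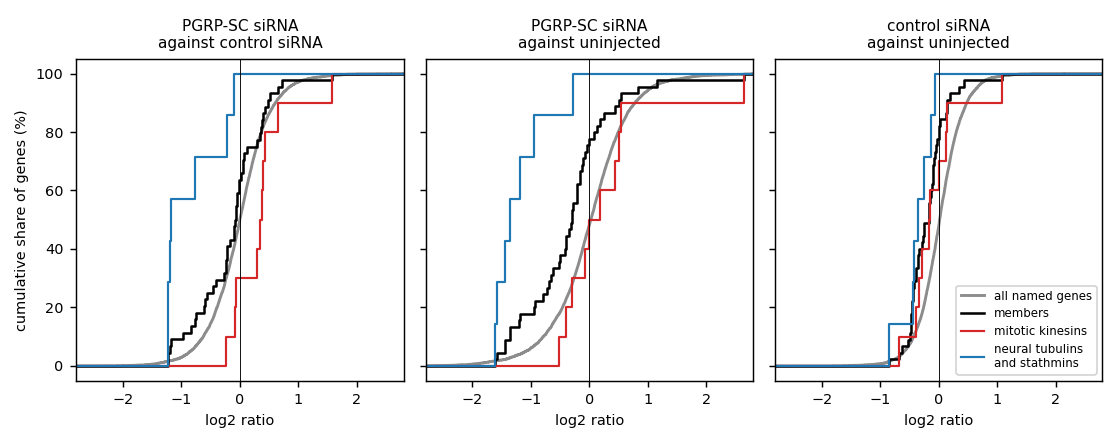
Cumulative share of genes (y axis, percent) by log2 ratio (x axis) in each of the 3 comparisons, for all named genes with a ratio (grey), all members (black), the 10 mitotic kinesins (red) and the 7 neural tubulins and stathmins (blue). The blue curve lies left of the grey one in both comparisons with PGRP-SC siRNA, with medians of -1.18 and -1.36, and the red curve lies right of it against control siRNA, with a median of 0.37; between the controls, where the blue and red medians were -0.35 and -0.16, the curves are closer together.

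Of the 4 transport kinesins, 3 had a log2 ratio below 0 against control siRNA, beside 50.3% of all named genes. One of them, kif5aa, was entered at its bound, and its sign was fixed by the floor. Between the control arrays 3 of 4 were below 0 as well, with a median of -0.25, beside 47.7% of all named genes. The axonal motor gene kif5aa, a conventional kinesin heavy chain, was under the floor with PGRP-SC siRNA and had signals of 172 with control siRNA and 234 without injection, so it was at least 1.69-fold and at least 2.30-fold lower. The gene kif1b, a kinesin-3 that carries vesicles along axons and is needed for messenger RNA transport in myelinating glia of zebrafish, had 295 with PGRP-SC siRNA, 392 with control siRNA and 512 without injection. For kif3a, a subunit of the heterotrimeric kinesin of cilia and axons, the values were 130.4, 199.5 and 216. Both were lower with PGRP-SC siRNA by less than 1.71-fold against control siRNA. The fourth gene, kif2a, a depolymerase that works at the spindle and in axons rather than a cargo carrier, did not share the pattern, at 1199, 1138 and 1131. The median of the 4, with kif5aa at its bound, was -0.51 against control siRNA and -0.76 against uninjected embryos, and that of the 3 above the floor in all arrays was -0.41 and -0.73.

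Of the remaining kinesins, kif19, which limits the length of motile cilia in mice, had signals of 303 with PGRP-SC siRNA, 216 with control siRNA and 171 without injection. Its log2 ratios were 0.49 against control siRNA and 0.83 against uninjected embryos. The Hedgehog pathway kinesin kif7 lay at the floor, at 121, 117 and 90.6, and the minus-end motor kifc3 had 399.9, 313 and 436, highest in the uninjected array.

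The other alpha- and beta-tubulins covered a wide range. Nearly level were 3 genes with strong probe sets: tuba8l4 had 15042 with PGRP-SC siRNA, 15237 with control siRNA and 15548 without injection, tubb4b had 8237, 8602 and 9154, and tuba5 had 4789, 4979 and 5891. Near the top of an array's range signals may be compressed, and no check of saturation was possible from these values. The signs of tuba8l4, tubb4b and tuba5 against control siRNA, at log2 ratios of -0.02, -0.06 and -0.06, turned under at least 1 other processing. Lower with PGRP-SC siRNA were tubb4bl, at 172, 338 and 465 in the PGRP-SC siRNA, control siRNA and uninjected arrays, and tuba2, at 118, 211 and 304. They were 1.97-fold and 1.79-fold lower than with control siRNA, and 2.71-fold and 2.57-fold lower than in uninjected embryos. The other 2 tuba2 probe sets were under the floor in all arrays.

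One alpha-tubulin went the other way. The tuba8l2 signal was 4242 with PGRP-SC siRNA, 2568 with control siRNA and 1909 without injection, or 1.65-fold and 2.22-fold higher. Its relative tuba8l3 had 2068, 2842 and 3942 in the same order, 1.37-fold and 1.91-fold lower. The 2 genes thus ran in opposite orders over the 3 arrays. The weakly detected tuba4l and tuba7l had log2 ratios of 0.51 and -0.02 against control siRNA and -0.12 and 0.13 against uninjected embryos.

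Gamma-tubulin, which nucleates microtubules at centrosomes, was lower with PGRP-SC siRNA by its gene tubg1, at 696 with PGRP-SC siRNA, 1031 with control siRNA and 1099 without injection. The ring complex subunit genes tubgcp2 and tubgcp3 had log2 ratios of -0.11 and -0.23 against control siRNA. All 3 genes ran lowest with PGRP-SC siRNA and highest without injection, by less than 1.71-fold in each comparison. A second tubgcp3 probe set, at 256, 334 and 243, did not keep that order.

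Of the 13 dynein and dynactin genes, 8 had a ratio against control siRNA, which ran from -0.60 to 0.11 in log2, and 0 of these 8 were past 1.71-fold. Of all 6514 named genes with a ratio, 389 were higher and 421 lower by more than that. With only 8 genes, a count of 0 does not set them apart from that background. Against uninjected embryos, with dync1li1 entered at its bound, 9 of 9 were below 0 with PGRP-SC siRNA, with a median of -0.34. With control siRNA 8 of 9 were below 0, with a median of -0.26. In both counts the sign of dync1li1 was fixed by the floor. Over all named genes 48.2% and 47.7% were below 0 in these 2 comparisons. The light intermediate chain gene dync1li2, which links the motor to its adaptors, was the lowest, at 765 with PGRP-SC siRNA, 1162 with control siRNA and 1235 without injection. Its relative dync1li1 was above the floor only without injection, at 143, so that both injected arrays were at least 1.41-fold lower and the size of the difference is not known. The light chain dynll1, an LC8 protein that also binds many partners outside dynein, had 6821, 7987 and 7897 in the PGRP-SC siRNA, control siRNA and uninjected arrays, and dynll2b had 860.3, 963 and 998. The roadblock light chain gene dynlrb1 had 1785, 2149 and 2731. For the Tctex-type light chain genes dynlt3 and dynlt2b, the second of which belongs to the dynein of cilia, the log2 ratios were -0.05 and 0.11 against control siRNA.

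The 2 dynactin genes were level between the injected arrays. The dynamitin gene dctn2 had 935 with PGRP-SC siRNA, 928 with control siRNA and 1038 without injection, and the pointed-end subunit gene dctn5 had 594, 572 and 795. The heavy chain gene dync1h1, the intermediate chain gene dync1i2b, the ciliary dynein gene dync2i2 and the light chain gene dynlt5 were under the floor in all 3 arrays, so these probe sets gave no value for the motor's core. The heavy chain had 2 such probe sets.

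Against uninjected embryos, 8 of 45 members were lower and 2 were higher by at least 2-fold, where the background was 6.09% lower and 5.76% higher. Beside tubb5, tubb2, stmn1b and stmn2a, the lower genes were stmn4 and kif5aa by their bounds, tubb4bl and tuba2, and the higher genes were kif20a and tuba8l2. The signs of stmn4 and kif5aa were fixed by the floor. The background also holds genes entered at a bound, 729 of 6565. With the floor at the 60th percentile 4 members were lower. Between control siRNA and uninjected embryos 1 of 45 members was at least 2-fold higher and 0 were lower, where the background was 1.11% and 0.774%. The 1 gene was kif20a. The members' median log2 ratio was -0.30 with PGRP-SC siRNA and -0.17 with control siRNA against uninjected embryos, beside 0.023 and 0.016 over all named genes. Of the 40 members above the floor in all arrays, 22 were lowest with PGRP-SC siRNA, intermediate with control siRNA and highest without injection, and 6 had the opposite order. Over the 5751 named genes above the floor in all arrays these orders were seen in 1441 and 1611.

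Genes that work with these members but were not chosen by the rule were counted from lists. The background for these counts was 49.7% above and 50.3% below 0 against control siRNA over all named genes. Against uninjected embryos 51.8% of them were above 0. Of 39 spindle and kinetochore genes with a ratio, 29 were above 0 against control siRNA, with a median log2 ratio of 0.15, and 0 were at least 2-fold away in either direction. The highest were the spindle kinase gene aurka at 0.73, the cohesion guardian sgo1 at 0.72 and the kinetochore gene mis12 at 0.62, and the lowest were spc24, zwilch and haus5 at -0.46, -0.41 and -0.38. Against uninjected embryos 22 of 40 were above 0, with a median of 0.059. The general cell cycle and DNA replication list leaned the other way, with 28 of 45 genes below 0 against control siRNA, a median of -0.20, and 0 of them at least 2-fold away. Its highest genes were the cyclin ccna1 at a bound of 0.48, the mitotic cyclin ccnb2 at 0.43 and the replication licensing gene cdt1 at 0.41. Its lowest genes were the maintenance methyltransferase dnmt1 at -0.77, the ribonucleotide reductase subunit rrm1 at -0.71 and the kinase cdk2 at -0.70.

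Of 17 microtubule-associated protein genes, 12 were below 0 against control siRNA, with a median of -0.17, and 1 was at least 2-fold lower. This was dpysl5a, of the collapsin response mediator family that acts in growing axons, with signals of 310.4 with PGRP-SC siRNA, 834 with control siRNA and 901 without injection. Its relative dpysl3 and the plus-end binding protein mapre1a had log2 ratios of -0.90 and -0.65, while mid1ip1a, maptb and mid1ip1l were at 0.72, 0.61 and 0.30. The 18 adaptors and regulators of dynein and kinesin were evenly split, 9 above and 9 below 0, with a median of -0.013. The kinesin light chain klc4, nudcd3 and kifbp were highest, at 0.85, 0.59 and 0.51, and nudcd2, kifap3a and capza1b lowest, at -0.59, -0.41 and -0.39. Of 31 tubulin folding, severing and modifying enzymes, 20 were below 0, with a median of -0.10. The cofactor gene tbcela, under the floor in both controls and at 224 with PGRP-SC siRNA, was at least 2.20-fold higher, and the severing enzyme relatives katnal1 and katnbl1 were at 0.47 and 0.45. The lowest were ttll4, pdcl3 and the tubulin deacetylase gene hdac6 at -0.63, -0.62 and -0.58.

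**Figure D4:**
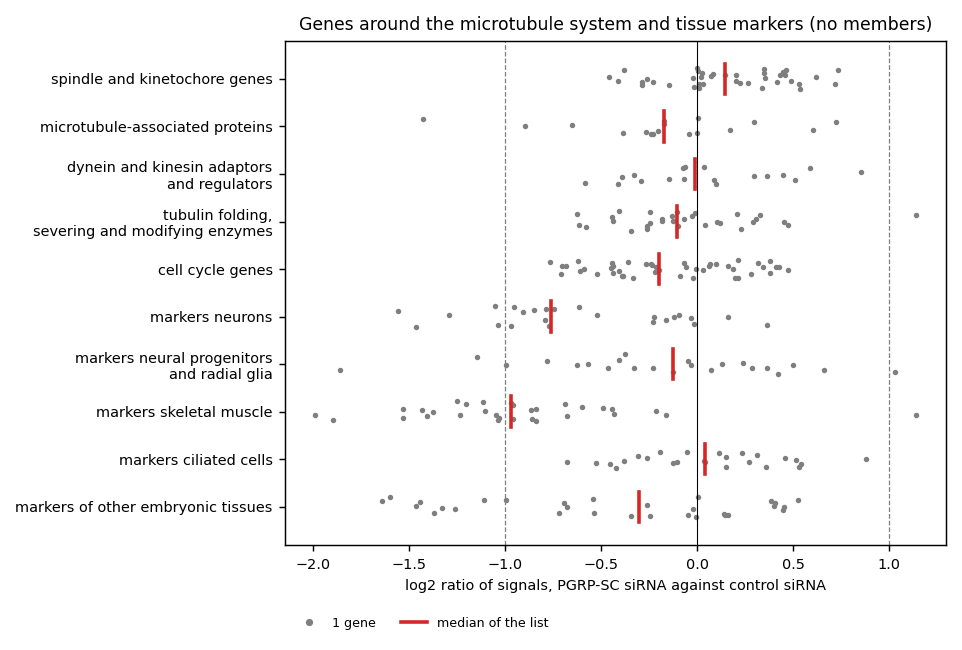
Log2 ratio of PGRP-SC siRNA against control siRNA (x axis) for genes of the microtubule system that are no members and for tissue markers, by list (y axis). Each grey point is 1 gene with a ratio, spread vertically for visibility, red bars are list medians and dashed lines mark a 2-fold difference; the spindle list has a median of 0.15, and the neuron and skeletal muscle markers have medians of -0.76 and -0.97.

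Among the lists of tissue markers, those of neurons and of skeletal muscle had the lowest medians. The background was 50.3% of all named genes below 0 against control siRNA. Of 24 neuron markers with a ratio, leaving out tubb5 and stmn2a, 22 were below 0 against control siRNA, with a median of -0.76. The summed signal of the 30 markers on the array was 12034 with PGRP-SC siRNA, 15574 with control siRNA and 17516 without injection, and 11, 6 and 4 of them were under the floor. The lowest were mllt11 at -1.56, sncgb at a bound of -1.46 and the synaptic gene snap25a at -1.30, and rtn1a and isl2a were above 0. The neural progenitor and radial glia markers did not share this level, with 14 of 23 below 0, a median of -0.13, and summed signals of 39583, 40841 and 37801 in the same order. Skeletal muscle markers were lower as well, 30 of 31 below 0 with a median of -0.97. Markers of ciliated cells had a median of 0.042, with 14 of 25 above 0, and those of the other embryonic tissues, among them blood, skin and notochord, a median of -0.30, with 20 of 30 below 0. At least 2-fold lower than control siRNA were 5 of 24 neuron, 15 of 31 muscle and 8 of 30 other-tissue markers. For progenitor and ciliated cell markers the counts were 2 of 23 and 0 of 25, and the background was 2.93%. The share of these mixtures in the members' ratios was not tested. The ratio of 5' to 3' signal of the array's actin control also moved with the groups, at 0.127 with PGRP-SC siRNA, 0.205 with control siRNA and 0.369 without injection, whereas that of its GAPDH control was 0.498, 0.347 and 0.350, and the part of transcript quality in the members' ratios was not tested.

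Several members could be read from more than 1 probe set. Of 18 such genes, 9 had at least 2 probe sets with a ratio against control siRNA, and in 6 of them all lay on the same side of 0. The exceptions were tuba1b, tubb4b and dynlt3, and no gene had probe sets beyond 0.5 on opposite sides. Against uninjected embryos the same side was seen in 7 of 9 genes, with the second kif15 probe set entered at its bound.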

How the data were processed

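Total RNA of whole-embryo pools was hybridised as biotin-labelled cRNA, per the labels' protocols. The deposited table gives, for each array, a linear intensity per probe set, made with GCOS 1.4 per the submitters' processing notes. Other settings are not given in the sources used here. All arrays share a 2% trimmed mean of 500.1, so they were scaled globally before deposit, and there are no detection calls.

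Of 15617 probe sets 115 controls were left out. The rest were rescaled to one 2% trimmed mean (factors of 0.999 to 1.00), and values under the 40th percentile of all signals were set to it before log2 ratios were taken. Genes came from the platform annotation where it gave 1 symbol (10795 probe sets), and all 70 member probe sets had a gene ID in the reference table. A gene's value is that of its probe set with the highest mean over the arrays. Counts used a ratio of at least 2. No test was made, because each group had 1 array.

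Members, classes and lists were chosen with earlier results of these data known. Genes named were members at least 2-fold from either control, the 3 strongest of each class, all mitotic kinesins, neural tubulins and neural stathmins above the floor, and the 3 list genes farthest in each direction. Other members were added to complete their class after their values were seen. The counting was tested on simulated data, with changes planted only in strong signals and less spread than between the control arrays. That test does not cover members near the floor. Python 3.11.15, pandas 2.3.3, R 4.3.3 and limma 3.58.1 (quantile and cyclic loess alternatives) were used.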

Additional observations from a re-analysis of the deposited data

How the results depend on the processing

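Of 162 values, from 18 counts and medians under 9 alternatives each, 146 kept their direction and size (counts within 1.5 times, medians within 0.1) and 0 changed sign. Counts cannot change sign, and some medians were themselves smaller than 0.1, so that limit is wide for them. The mitotic kinesin median against uninjected embryos, 0.088, was 0.028 with the mean over probe sets and still counted as kept. Median scaling, quantile normalization, cyclic loess, the floor at the 20th percentile and leaving out probe sets that can share probes moved none of the 162 values. With no floor, 2 members were at least 2-fold higher with PGRP-SC siRNA than with control siRNA, and 1 was lower with control siRNA than without injection. With the floor at the 60th percentile, 4 members were lower with PGRP-SC siRNA than without injection. The neural tubulin and stathmin medians against control siRNA and against uninjected embryos became -0.86 and -1.20, and those of the transport kinesins -0.17 and -0.36 over 2 genes. This floor, at 269, lies above the PGRP-SC siRNA signals of tubb2 and stmn2a. With a pseudocount of 64 in place of a floor the neural medians were -0.96 and -1.19 and the transport medians -0.39 and -0.60. With the mean over probe sets they were -1.07 and -1.19, and -0.41 and -0.56, and 0 members were higher with control siRNA than without injection. Chosen after seeing the data, leaving out kif20a turned the mitotic kinesin median against uninjected embryos to -0.0043 and kept it at 0.35 against control siRNA. No paired analysis was possible because each group had 1 array, and for the same reason no array could be left out. Low signals limit what can be said of the dynein heavy and intermediate chains.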
